A study of Mus musculus with 29 samples.

Results

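Chromatin accessibility was compared between all bipolar cells (pan-BC) and rods of the adult mouse retina, over every region of 200 bp in the table of ATAC-seq counts. In ATAC-seq, a transposase cuts open chromatin, and the number of reads over a region is the measure of its accessibility. The comparison used 4 of the 29 samples of the series, 2 pan-BC and 2 rod libraries, and all 110715 regions of the table. Of these regions, 16520 were promoters, centred within 1000 bp before or 100 bp after a transcription start site (TSS), and 94195 were TSS-distal. The remaining samples were ATAC-seq libraries of ON and OFF bipolar cells, of green cones (Opn1mw-GFP) and of blue cones, and RNA-seq libraries. In these ATAC-seq libraries, ON and OFF bipolar cells came from mice of postnatal day 42 (replicate 1) and 46 (replicate 2), and cones from postnatal day 56. The blue cones are photoreceptors of Nrl-eGFP;NrlKO mice, which lack NRL and make cones of this kind in place of rods. The pan-BC libraries came from mice labelled Otx2-GFP+/-; Grm6-YFP+/+ at postnatal day 44 (replicate 1) and 43 (replicate 2), although a table of the study lists the same libraries without the Grm6-YFP transgene. In these mice a GFP cassette sits at the end of the coding sequence of 1 Otx2 allele, which every bipolar library of the series carried. Cells were sorted by GFP fluorescence in a single sort. The rods, sorted the same way from Nrl-eGFP mice of postnatal day 56, were re-analysed from previous work of the laboratory. Cell class, study, age and reporter therefore differed together and cannot be told apart. The labels do not say which animals each replicate came from, so p-values measure the spread between these libraries. A pan-BC library mixes the many types of bipolar cell, and the share of each type was not measured, so a level is an average over types, and a region open in fewer cells cannot be told apart from one that is less open in each cell.

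Rods are the photoreceptors of dim light. They capture photons in a stacked outer segment and pass the signal through transducin and a phosphodiesterase to cation channels, and their identity rests on the transcription factors NRL, NR2E3 and CRX. Bipolar cells receive the glutamate that photoreceptors release, ON types through the receptor mGluR6 and the channel TRPM1 and OFF types through ionotropic glutamate receptors, and they relay the signal to amacrine and ganglion cells. Both cell classes descend from progenitors that express OTX2, both release glutamate at ribbon synapses, and both use homeodomain factors of the K50 kind, OTX2 and CRX, which bind the letters TAATCC.

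The sequences below show the DNA behind the comparison, since the same letters occur in regions that were open in rods and in regions that were open in bipolar cells. They are reference sequence of GRCm38 from RefSeq, 5′ to 3′, and capitals mark TAATCC and the E-boxes CAGATG and CAGCTG on either strand. E-boxes are the sites of basic helix-loop-helix factors such as NEUROD1, NEUROD4 and BHLHE23. The first set holds the part upstream of the TSS of 2 promoters that were open in rods, on the strand of the gene. Gnat1 encodes the rod transducin alpha subunit and Nrl the factor that sets rod fate.
Gnat1 promoter region, chr9:107679635-107679809, minus strand: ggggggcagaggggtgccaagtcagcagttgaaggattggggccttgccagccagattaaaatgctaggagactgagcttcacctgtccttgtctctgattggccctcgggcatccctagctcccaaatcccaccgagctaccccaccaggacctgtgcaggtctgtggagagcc
Nrl promoter region, chr14:55524982-55525120, minus strand: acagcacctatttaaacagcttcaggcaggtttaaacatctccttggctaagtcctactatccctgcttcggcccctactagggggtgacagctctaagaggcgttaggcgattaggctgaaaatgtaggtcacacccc
The second set holds the same part of 3 promoters that were open in pan-BC. Trpm1 encodes the transduction channel of ON bipolar cells, Cabp5 a calcium-binding protein of bipolar cells and Isl1 a LIM homeodomain factor of ON bipolar cells.
Trpm1 promoter region, chr7:64153724-64153834, plus strand: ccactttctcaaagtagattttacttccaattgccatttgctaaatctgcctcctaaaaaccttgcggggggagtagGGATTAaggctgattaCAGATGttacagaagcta
Cabp5 promoter region, chr7:13397947-13398147, plus strand: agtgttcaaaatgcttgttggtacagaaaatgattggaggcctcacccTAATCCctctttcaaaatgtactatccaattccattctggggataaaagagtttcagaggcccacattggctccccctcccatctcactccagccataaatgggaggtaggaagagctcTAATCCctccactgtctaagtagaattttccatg
Isl1 promoter region, chr13:116309689-116309864, minus strand: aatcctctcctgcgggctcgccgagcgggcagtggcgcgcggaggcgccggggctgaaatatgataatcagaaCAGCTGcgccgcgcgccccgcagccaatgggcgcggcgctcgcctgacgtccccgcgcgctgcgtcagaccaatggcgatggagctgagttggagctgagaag
TAATCC stood once in the Trpm1 promoter and 2 times in that of Cabp5. These letters were not found in the printed part of the Gnat1, Nrl and Isl1 promoters. Over all promoters the order was the other way, with TAATCC in 12.1% of those called lower in pan-BC and 5.51% of those called higher. The third set holds TSS-distal regions, on the plus strand, that were open in rods. The regions nearest H3f3a and Rgs22 had the largest differences of this direction. Those of Esrrb and Rbp3, genes that rods use, were the strongest of their gene, which means the highest mean level over the 4 libraries.
H3f3a TSS-distal region, chr1:180784886-180785086, plus strand: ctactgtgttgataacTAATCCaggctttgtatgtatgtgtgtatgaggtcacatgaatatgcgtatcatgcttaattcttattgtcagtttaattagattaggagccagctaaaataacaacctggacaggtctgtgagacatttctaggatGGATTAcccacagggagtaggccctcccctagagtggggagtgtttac
Rgs22 TSS-distal region, chr15:36104103-36104303, plus strand: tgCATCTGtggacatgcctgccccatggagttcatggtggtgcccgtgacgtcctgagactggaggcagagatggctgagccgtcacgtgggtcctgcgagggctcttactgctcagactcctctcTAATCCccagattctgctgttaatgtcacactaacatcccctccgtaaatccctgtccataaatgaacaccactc
Esrrb TSS-distal region, chr12:86507795-86507995, plus strand: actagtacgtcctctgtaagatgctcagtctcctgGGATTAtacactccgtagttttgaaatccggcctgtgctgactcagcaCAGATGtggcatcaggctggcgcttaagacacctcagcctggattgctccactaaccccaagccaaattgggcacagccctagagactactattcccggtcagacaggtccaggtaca
Rbp3 TSS-distal region, chr14:33950199-33950399, plus strand: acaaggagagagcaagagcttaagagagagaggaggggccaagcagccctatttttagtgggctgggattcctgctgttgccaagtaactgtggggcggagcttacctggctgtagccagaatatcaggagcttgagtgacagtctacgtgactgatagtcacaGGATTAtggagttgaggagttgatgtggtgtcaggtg
The fourth set holds TSS-distal regions that were open in pan-BC, the one with the largest difference, near Mir6379, and the strongest of Trpm1, Isl1 and Car8.
Mir6379 TSS-distal region, chr3:46848568-46848768, plus strand: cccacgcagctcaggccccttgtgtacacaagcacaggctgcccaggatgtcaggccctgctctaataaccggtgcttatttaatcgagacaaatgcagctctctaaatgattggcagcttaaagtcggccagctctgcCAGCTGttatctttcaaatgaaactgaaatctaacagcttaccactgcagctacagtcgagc
Trpm1 TSS-distal region, chr7:64163535-64163735, plus strand: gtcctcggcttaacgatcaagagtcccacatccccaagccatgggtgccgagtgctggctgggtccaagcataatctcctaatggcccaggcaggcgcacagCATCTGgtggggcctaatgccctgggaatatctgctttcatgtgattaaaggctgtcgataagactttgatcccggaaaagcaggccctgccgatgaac
Isl1 TSS-distal region, chr13:116508954-116509154, plus strand: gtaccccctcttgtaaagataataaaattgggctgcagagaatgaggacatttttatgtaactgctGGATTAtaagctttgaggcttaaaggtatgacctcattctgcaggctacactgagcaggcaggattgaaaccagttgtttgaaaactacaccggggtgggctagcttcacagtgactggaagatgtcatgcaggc
Car8 TSS-distal region, chr4:8219566-8219766, plus strand: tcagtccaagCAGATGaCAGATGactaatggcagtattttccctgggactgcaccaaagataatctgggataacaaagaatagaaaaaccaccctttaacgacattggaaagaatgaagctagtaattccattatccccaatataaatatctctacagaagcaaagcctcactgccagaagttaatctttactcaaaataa
Of the 4 rod regions all held TAATCC and 2 held an E-box, and of the 4 pan-BC regions 1 held TAATCC and 3 held an E-box. The printed regions are examples and too few to give a share. Over all TSS-distal regions, TAATCC was found in 42.9% of those called lower in pan-BC, 21.2% of those called higher and 24.6% of those tested.

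The 4 libraries had 7937202, 12345845, 9665199 and 10890548 reads counted in the regions, for pan-BC 1, pan-BC 2, rod 1 and rod 2. The values below are normalized counts, the reads of a region divided by the size factor of its library. The median region had 29.6 and 31.9 normalized counts in the pan-BC libraries but 7.79 and 8.81 in the rod libraries, and the other populations lay at 14.2 to 33.7. Only 32 regions had no read in any of the 4 libraries. A count of 3 reads was taken as the most that 0 reads allow, which treats reads as independent. It corresponded to 2.4 and 1.71 normalized counts in pan-BC and to 2.34 and 2.03 in rods. A fragment can add 2 reads, so this floor may be too low and the fold bounds given below too high. Rod markers checked the sort: their promoters (9 regions of 7 genes) summed to 234 and 162 normalized counts in pan-BC and to 5695 and 5503 in rods. The 8 promoter regions of the bipolar markers summed to 819 and 873 in pan-BC and to 421 and 451 in rods, and those of Trpm1 and Cabp5 were at 0 in rods. The 62 TSS-distal regions of the bipolar markers did not follow, with sums of 2452 and 2729 in pan-BC and 2754 and 3021 in rods, and 20 of the 60 tested were higher and 11 lower, where 44.5% of all TSS-distal regions were higher and 10.8% lower.

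More regions were called higher in pan-BC than lower with the size factors of the table. The balance turned under a GC correction and with equal library medians, as given below, and both steps remove the overall level of each library. Among 108448 regions with enough reads to test, 43735 were more accessible in pan-BC (40.3%) and 12179 were less accessible (11.2%), 55914 or 51.6% in all, so that 78.2% of the calls were higher in pan-BC. The test was limma's treat on log2(normalized count + 1) against a log2 difference of 1, and adjusted p-values below 0.05 (Benjamini and Hochberg over all regions tested) were called. The median log2 difference (pan-BC minus rods) was 4.29 among regions called higher, with a median standard error of 0.68, and -2.88 among regions called lower, with a median standard error of 0.44. In each called region the 2 pan-BC and the 2 rod libraries did not overlap, but this was common among all regions. Of the 108448 regions tested, both pan-BC libraries stood above both rod libraries at 61789 and below both at 33637. Differences beyond 5 on the log2 scale were found in 12419 regions called higher and in 335 called lower. Rods had no read in either library at 13968 regions, and 12823 of these were called higher, which is 29.3% of the regions called higher. Pan-BC had no read in either library at 219 regions, of which 91 were called lower. The fitted difference of a region at 0 depends on the 1 added before the logarithm and is no bound on the change in either direction.

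**Figure D1:**
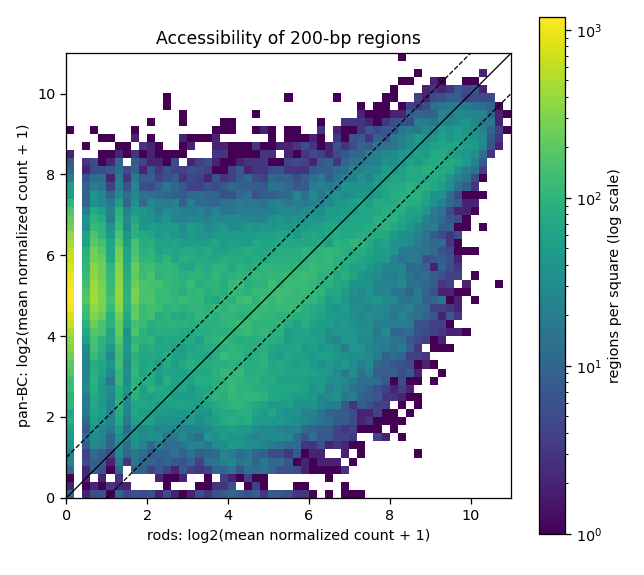
Each square counts the tested regions at one level in rods (horizontal axis) and in pan-BC (vertical axis), both as log2(mean normalized count + 1) of 2 libraries, with equality as a solid line and log2 differences of 1 and -1 as dashed lines. A dense column of regions stands at and near 0 in rods, where 12823 regions were called higher in pan-BC, and a smaller cloud lies below the diagonal, where 12179 regions were called lower.

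Promoters and TSS-distal regions had different shares of higher and lower calls. Among 16495 promoters, 31.0% were called, 17.2% higher and 13.8% lower in pan-BC, and the median difference was -0.37. Among 91953 TSS-distal regions, 55.3% were called, 44.5% higher and 10.8% lower, and the median difference was 1.67. With the GC correction the shares higher and lower were 13.2% and 27.6% for promoters and 22.0% and 23.4% for TSS-distal regions, and with equal library medians 8.31% and 62.9%, and 24.0% and 29.1%. TSS-distal regions between genes were higher in pan-BC in 53.0% and lower in 8.26% of cases, those in introns in 38.9% and 13.0%, and those in exons in 31.4% and 9.25%. The share called higher rose with the distance from the nearest TSS, from 28.1% up to 5 kb and 31.4% at 5 to 20 kb to 45.7% at 20 to 100 kb and 71.3% beyond 100 kb, while the share called lower was 14.1%, 15.1%, 10.1% and 4.03% in the same bins. Promoters with few CpG were called more often in both directions, with 34.2% higher and 19.2% lower below 6 CpG against 12.6% and 11.4% at 15 or more CpG. On the X chromosome 52.9% of regions were called higher and 5.67% lower, and on chromosome 11 these shares were 24.9% and 18.4%.

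GC content moved with these shares. Below 35% GC, 80.6% of regions were called higher and 4.26% lower, and at 65% GC or more 18.4% and 8.45%. The median rod level was 0 below 35% GC, and the median pan-BC level there was 28.0. After each library was corrected for a smooth trend on GC content, 22375 regions were called higher and 26055 lower, so that 46.2% of calls were higher in pan-BC instead of 78.2%. The correction removed the overall level of each library together with its trend on GC, and the median difference became -0.09. A near-even balance of calls follows from that step, so it does not give the part of GC content in the excess. All 22375 had been called higher before the correction, all 12179 regions called lower before it were again called lower, and 1 region changed from higher to lower. When the medians of the libraries were set equal, an alternative added after seeing the data, 23409 regions were called higher and 37172 lower. That step also removes the overall level of each library, so its balance cannot show whether the excess is real. With size factors from promoters alone 47854 regions were called higher and 7800 lower. The part of GC content, library preparation and chromatin in the excess of higher calls cannot be told apart in 4 libraries from different studies. The results for named genes are therefore read beside the share of all regions of their class.

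**Figure D2:**
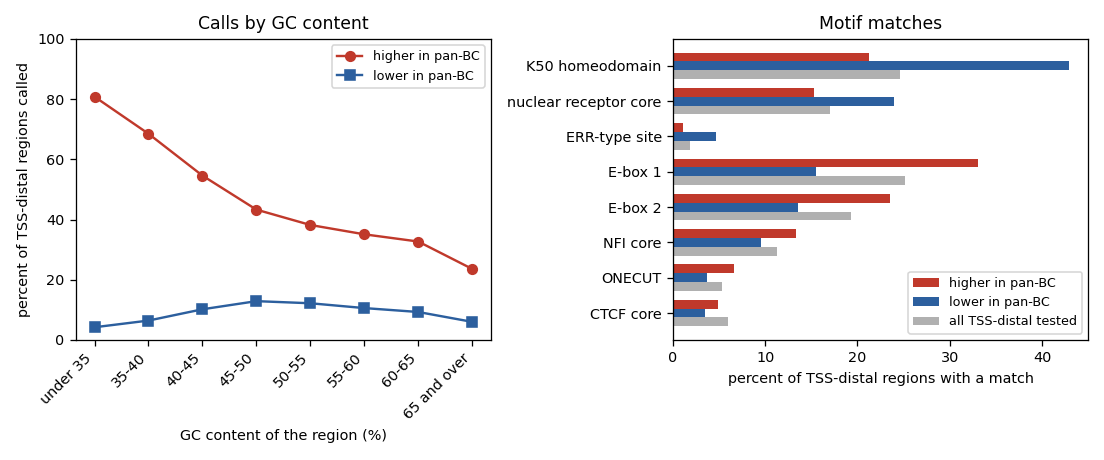
The left panel plots the percentage of TSS-distal regions called higher (circles) or lower (squares) in pan-BC against the GC content of the region, and the right panel plots the percentage of TSS-distal regions with a motif match among those called higher, those called lower and all tested, where E-box 1 is CAGATG and E-box 2 is CAGCTG. Calls in favour of pan-BC fell from the lowest to the highest GC bin, and matches to the K50 homeodomain motif were found in 42.9% of regions called lower and in 21.2% of regions called higher.

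The promoters of the rod phototransduction genes were nearly all less accessible in bipolar cells. Of 25 tested promoter regions of 21 genes, 22 were lower in pan-BC and 1 was higher, with a median log2 difference of -3.82, where 13.8% of all promoters were lower and their median was -0.37. The Gnat1 promoter had 7.2 and 15.4 in pan-BC and 792 and 748 in rods (log2 difference -6.05 ± 0.54, limma treat, adjusted p = 3.94e-07). Both pan-BC libraries were far below both rod libraries there, and the difference was among the 10 largest of the promoters called lower. Pde6b, a catalytic subunit of the phosphodiesterase, had 12.8 and 14.3 against 491 and 451, and Pde6g, its inhibitory subunit, 16.8 and 16 against 501 and 482. Cnga1, the rod channel subunit, had 12.8 and 9.12 against 218 and 209. The calcium sensors for guanylate cyclase and for the recovery of the photoresponse behaved alike, and Guca1b had 24.8 and 38.8 against 934 and 952 and Rcvrn, the gene of recoverin, 23.2 and 27.4 against 368 and 389. Grk1, a kinase that ends the photoresponse, had 49.6 and 31.9 against 893 and 926 (log2 difference -4.48 ± 0.22, limma treat, adjusted p = 1.49e-09), whereas Sag, the rod arrestin, kept 73.6 and 60.4 in pan-BC against 536 and 523.

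A promoter region of Gnb5, the beta subunit that works with RGS9, was the one called higher, with 253 and 270.0 in pan-BC and 80.2 and 92.2 in rods (log2 difference 1.59 ± 0.20, limma treat, adjusted p = 0.0108). It was singled out after its values were seen, and the call was lost without pan-BC 2 (adjusted p = 0.05), without rod 1, with TMM scaling and with the GC correction, and its difference was -0.16 with equal library medians. Another promoter region of Gnb5 was lower, with 28.0 and 37.6 against 400.0 and 425. The stronger promoter region of Gnb1 and the promoter of Gngt1, subunits of transducin, were not called. Gnb1 had 52.8 and 45 in pan-BC and 174 and 159 in rods (log2 difference -1.75 ± 0.43, limma treat, adjusted p = 0.0901), and Gngt1 had 90.4 and 107 against 230.0 and 239 (-1.24 ± 0.26, adjusted p = 0.291). The libraries did not overlap at either promoter. An intron of Gnb1, 31167 bp into the gene, had 16 and 8.55 in pan-BC and 617 and 663 in rods, and 8 of the 9 regions of Gnb1 were lower. Rgs9bp, which anchors the complex that switches transducin off, was called lower with 72.8 and 66.7 against 225 and 228, but this call was lost without any 1 of the 4 libraries. Among the 121 tested TSS-distal regions of the list, 69 were lower and 5 higher in pan-BC (median -2.43, against 1.67 for all TSS-distal regions). An exonic region of Rcvrn had the largest difference among them, with 5.6 and 7.41 against 407 and 379. Under the GC correction 24 of the 25 promoters and 91 of the 121 TSS-distal regions were lower and none was higher, where 27.6% of all promoters and 23.4% of all TSS-distal regions were lower.

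Genes of the outer segment and of retinoid handling showed the same direction. Of 27 promoter regions, 22 were lower in pan-BC and none was higher (median -3.09), and of 172 TSS-distal regions 81 were lower and 21 higher (median -1.90). Over all features, 13.8% of promoters were lower and 17.2% higher, and 10.8% of TSS-distal regions were lower and 44.5% higher. Prph2, a rim protein of the discs, had 48.8 and 51.9 in pan-BC against 675 and 694 in rods, and Tulp1, which acts in transport to the outer segment, 14.4 and 22.2 against 503 and 482. Fscn2, a photoreceptor actin-bundling protein, had 11.2 and 13.1 against 266 and 321. Rbp3, the carrier of retinoids between photoreceptors and pigment epithelium, retained 72.8 and 98.6 at its promoter against 705 and 739, but a region 3704 bp upstream, printed above, had 16 and 12.5 against 649 and 683 (log2 difference -5.46 ± 0.26, limma treat, adjusted p = 6.09e-10). The promoters of Cdhr1 and Fam161a were called lower at differences of -1.75 and -1.66, and both calls were lost with size factors from promoters.

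Transcription factors split by lineage. Of the 29 promoter regions of photoreceptor factors, 14 were lower in pan-BC and 3 higher, with a median of -1.01, beside 13.8% lower, 17.2% higher and a median of -0.37 for all promoters. The Nrl promoter had 52.8 and 21.7 in pan-BC and 1645 and 1616 in rods, a log2 difference of -5.55 ± 0.36 (limma treat, adjusted p = 1.22e-08). The Nrl-eGFP transgene of the rods carries Nrl promoter sequence, so reads from it cannot be separated from those of the gene. Nr2e3, the nuclear receptor downstream of NRL, had 21.6 and 16 against 489 and 475. Esrrb, an orphan nuclear receptor of rods, had 25.6 and 30.8 against 664 and 672 at its promoter and 22.4 and 23.4 against 780.0 and 773 in an intron, and 18 of its 29 regions were lower and none higher. Casz1, a zinc finger factor of rod chromatin, had 17.6 and 22.8 against 819 and 699, with 23 of 31 regions lower. Samd7, a polycomb-associated repressor of rods, had 23.2 and 25.7 against 516 and 466. At each of these promoters both rod libraries stood far above both pan-BC libraries.

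Factors that both cell classes use differed less. Crx had 238 and 304 at its promoter in pan-BC and 561 and 527 in rods (log2 difference -1.01 ± 0.20, limma treat, adjusted p = 0.654). Neurod1 had 460.0 and 607 against 556 and 539, with overlapping libraries, and Rorb 430.0 and 562 against 590.0 and 524. Otx2, which carries the GFP cassette in the bipolar cells, had 130.0 and 162 against 43.6 and 65.7 at its TSS (log2 difference 1.42 ± 0.30, adjusted p = 0.151 by limma treat), and a region 53637 bp downstream had 122 and 112 against 408 and 425 and was lower, a call that was lost with size factors from promoters. A second Otx2 promoter region, at chr14:48664933-48665133, had 24.0 and 8.55 against 70.9 and 95.5 and was called lower (log2 difference -2.43 ± 0.63, limma treat, adjusted p = 0.0363). It too was singled out after its values were seen, and that call was lost without pan-BC 2 (adjusted p = 0.29), without either rod library, with a pseudocount of 0.5 and with 3 of the other scalings. In all, 4 of the 14 regions of Otx2 were lower and none was higher. Promoter and TSS-distal regions of a gene could move in opposite directions. Mef2c, a factor of the MEF2 family, had a promoter with 24.0 and 22.8 in pan-BC against 322 and 363 in rods, which was lower, yet 16 of its 22 regions were higher in pan-BC and 2 were lower. Rorb, a nuclear receptor of both classes, had 21 of 36 regions higher and 1 lower beside its uncalled promoter. In the whole list 51 TSS-distal regions of 247 were higher and 78 lower, beside 44.5% and 10.8% of all. With the GC correction these counts were 24 and 118.

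Regions of bipolar transcription factors were called higher in pan-BC more often than all regions of their class. Pan-BC was higher at 10 of 26 promoter regions and lower at 2, with 14 not called (median 0.88), beside 17.2% and 13.8% of all promoters. Of 272 TSS-distal regions 177 were higher and 6 lower (median 3.43), against 44.5% and 10.8% of all TSS-distal regions. With the GC correction 107 of the 272 were higher and 22 lower (median 1.87, and 0.17 for all TSS-distal regions), and with equal library medians 98 and 32. The Isl1 promoter had 267 and 365 normalized counts in pan-BC and 0 and 1.36 in rods, a log2 difference of 7.67 ± 0.60 (limma treat, adjusted p = 5.43e-08), and all 23 regions of Isl1 were higher. St18, a zinc finger factor, had 92.8 and 177 against 0 and 1.36, and all 15 of its regions were higher. Lhx4, a LIM homeodomain factor of bipolar cells, had 96.0 and 145 against 5.45 and 5.42, and Neurod4, a helix-loop-helix factor, 138 and 125 against 6.23 and 5.42. The calls at the promoters of Zfhx4, Six3 and, in the next list, Pcp2 were lost when library medians were set equal, and the median of the 26 promoters then was -0.87 beside -2.12 for all promoters.

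Some bipolar factors did not differ at their promoters. Nfib had 93.6 and 113 against 84.1 and 85.4, with 10 of its 13 regions higher, and Nfix had 31.2 and 35.4 against 38.9 and 59.6, with 1 of its 7 regions lower and none higher. Both encode nuclear factor I proteins. The Meis2 promoter was called lower, with 79.2 and 108 against 285 and 271, and this call was lost without pan-BC 1, without rod 1 or with size factors from promoters. Near Bhlhe23, which rod bipolar cells need, the promoter had 82.4 and 57.0 against 4.67 and 2.71, while a region 48793 bp upstream had 80.8 and 69.0 against 568 and 602. The nearest TSS assigns a region to a gene, and the gene that such a region acts on was not measured.

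**Figure D3:**
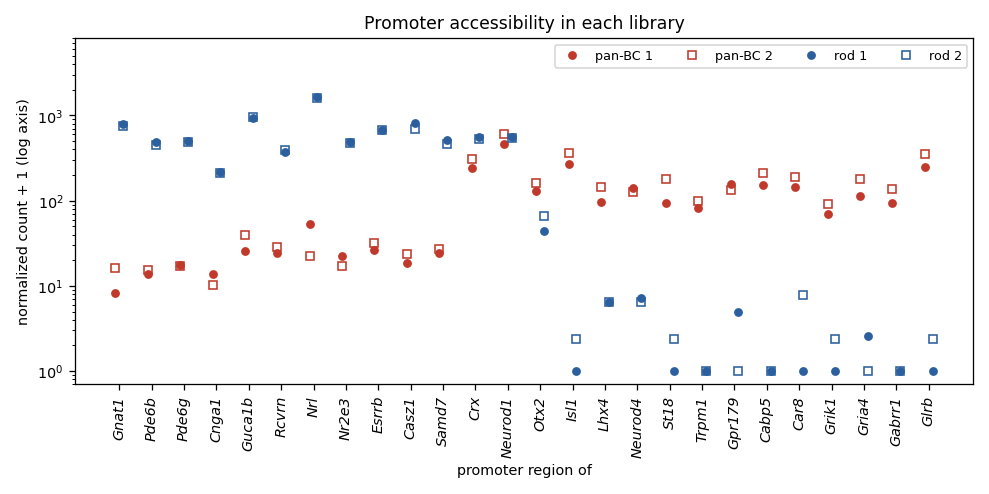
Normalized count + 1 (log axis) at the promoter of each gene, with circles for replicate 1 and open squares for replicate 2 of pan-BC (red) and rods (blue). The genes drawn are a selection from the lists. The rod genes drawn on the left stand at 7.2 to 52.8 normalized counts in pan-BC, and Crx, Neurod1 and Otx2 lie closer together in the 4 libraries. The bipolar genes drawn on the right stay below 9 in rods. Genes of the same lists that differ from these patterns, such as Gnb3, Gnao1, Prkca, Lrit3, Gnb1 and Gngt1, are given in the text and not drawn.

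Genes of the mGluR6 cascade and other genes of rod bipolar cells were taken as 1 list. Of its 19 promoter regions 12 were higher, 1 was lower and 6 were not called (median 3.70, also with regions at 0 in rods set to their lower bound), beside 17.2% higher and 13.8% lower of all promoters. The Trpm1 promoter had 80.0 and 99.2 in pan-BC and no read in either rod library, at least 41.0-fold higher against a floor of 3 reads, and all 7 regions of Trpm1 were higher. In an intron 9800 bp into Trpm1 the values were 169 and 231 against 3.12 and 5.42. Gpr179, an orphan receptor that holds the regulators of G-protein signalling at the dendrite, had 154 and 132 against 3.89 and 0. Rgs7, such a regulator, had 158 and 185 against 4.67 and 5.42, and Cabp5 had 152 and 210.0 against no read, at least 82.8-fold higher. Pcp2, a modulator of G proteins in rod bipolar cells, had 88.8 and 82.7 against 3.89 and 8.13, and Car8, a carbonic anhydrase-related protein, 142 and 190.0 against 0 and 6.78. The second pan-BC library was mostly the higher of the pair, and the rod libraries stayed below 9 normalized counts at each of these promoters.

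Other members of the list did not move with it. No region of the table was a promoter of Grm6, the mGluR6 gene, and its strongest region, 2295 bp upstream, had 55.2 and 45.6 in pan-BC and 45.2 and 37.9 in rods. Of the 5 regions of Grm6, 2 were called higher and none lower. The Grm6-YFP transgene carries Grm6 promoter sequence, so reads there cannot be assigned to the gene alone. The promoter of Gnb3, the beta subunit of the ON bipolar G protein, had 183 and 177 against 297 and 258 and was not called (adjusted p = 1.0 by limma treat). Gnao1, its alpha subunit, had 566 and 486 against 205 and 161, a call that was lost without pan-BC 1 or rod 2, with TMM scaling and with the GC correction, and at -0.23 with equal library medians. Prkca, the protein kinase C of rod bipolar cells, had 195 and 141 against 294 and 272 at its promoter, and 8 of its 24 regions were lower and 4 higher. The promoter of Lrit3, which ON bipolar cells need to place TRPM1 and which photoreceptors express, had 8.0 and 16.5 in pan-BC and 290.0 and 312 in rods (log2 difference -4.58 ± 0.70, limma treat, adjusted p = 0.000161). Over the TSS-distal regions of the list, 88 of 135 were higher and 11 lower, beside 44.5% and 10.8% of all TSS-distal regions. These counts were 51 and 23 with the GC correction and 40 and 26 with equal library medians.

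With the size factors of the table, genes of the OFF pathway were the most uniformly open of the bipolar lists in pan-BC. Of 10 promoter regions 9 were higher and none lower (median 4.96), and of 108 TSS-distal regions 97 were higher and 2 lower (median 4.67, or 3.85 with regions at 0 in rods set to their lower bound). Beside these stood 17.2% higher and 13.8% lower of all promoters, and 44.5% and 10.8% of all TSS-distal regions. Grik1, the kainate receptor subunit of OFF bipolar dendrites, had 68.8 and 90.7 at its promoter against 0 and 1.36, and a region 69971 bp upstream had 85.6 and 120.0 against no read in rods. Gria4 and Gria2, AMPA receptor subunits, had 112 and 180.0 against 1.56 and 0, and 192 and 257 against 14 and 14.9. The largest set belonged to Slitrk6, a synaptic adhesion gene, with 30 of 32 regions higher and none lower. The only region of Cabp2, a calcium-binding protein of OFF types, went the other way, with 40.0 and 20.5 in pan-BC and 157 and 195 in rods (log2 difference -2.57 ± 0.34, limma treat, adjusted p = 0.000435). Under the GC correction 9 of the 10 promoters but 37 of the 108 TSS-distal regions were called higher, where 22.0% of all TSS-distal regions were higher. That share was below those of the inhibitory receptors (44 of 100), the bipolar factors (107 of 272) and the mGluR6 list (51 of 135). With equal library medians 66 of the 108 were higher and 3 lower, beside 24.0% and 29.1% of all TSS-distal regions.

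Receptors for inhibitory transmitters, through which amacrine cells act on bipolar cells, followed the OFF genes. Of 15 promoter regions 9 were higher and 1 lower (median 4.24, or 3.32 with regions at 0 set to their bound), and of 100 TSS-distal regions 70 were higher and 4 lower, beside 17.2% higher and 13.8% lower of all promoters and 44.5% and 10.8% of all TSS-distal regions. With the GC correction 44 of the 100 were higher and 14 lower, and with equal library medians 44 and 16. Gabrr1, a subunit of the GABA-C receptor of bipolar terminals, had 92.0 and 135 against no read in rods, at least 51.9-fold higher. Glrb, the glycine receptor beta subunit, had 245 and 348 against 0 and 1.36 (log2 difference 7.58 ± 0.48, limma treat, adjusted p = 5.95e-09). The only promoter called lower was that of the chloride exporter Slc12a5, with 59.2 and 55.9 against 266 and 258 in rods, and 5 promoter regions were not called.

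The ribbon synapse machinery, which rods and bipolar cells share, had calls in both directions. Of 23 promoter regions 2 were higher, 7 lower and 14 not called (median -1.09), and of 180 TSS-distal regions 57 were higher and 37 lower, beside 44.5% and 10.8% of all (median 0.27, which turned to -1.05 with the GC correction and -1.49 with equal library medians). Over all promoters 17.2% were higher and 13.8% lower. The 7 lower promoters became 11 with the GC correction, 20 with equal library medians and 3 with size factors from promoters. Cabp4, a partner of the photoreceptor calcium channel, had 28.0 and 25.7 in pan-BC against 899 and 787 in rods (log2 difference -4.92 ± 0.24, limma treat, adjusted p = 1.16e-09). Rims1, an active zone protein, had 244 and 371 against 5.45 and 2.71, and all 18 of its regions were higher. Ctbp2, whose locus encodes the ribbon protein RIBEYE, had 124 and 125 against 518 and 564. The promoters of Snap25 (188 and 260.0 against 248 and 247) and Pclo (322 and 423 against 380.0 and 328) overlapped between the groups and were not called. Cacna2d4 and Unc13b were lower, with differences of -1.72 and -1.66 that were lost with size factors from promoters.

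Lists with no tie to either class served as a reference. Of 13 housekeeping promoters 2 were lower and none higher (median -0.85), and of 18 promoters of immediate early genes 1 was lower (median -0.33), beside 13.8% of all promoters. Of their TSS-distal regions, 6 of 56 were higher and 11 lower for housekeeping genes (median -0.47), and 11 of 86 were higher and 13 lower for immediate early genes (median -0.56), beside 44.5% higher, 10.8% lower and a median of 1.67 for all TSS-distal regions. The promoter medians moved with the scaling of all promoters, to -0.37 and 0.15 with size factors from promoters (0.11 for all promoters) and to -2.61 and -2.09 with equal library medians (-2.12 for all promoters). Among 18 promoters of nuclear architecture genes 2 were higher and 1 lower. Lmna, which encodes the A-type lamins, had 129 and 117 at its called promoter against 3.12 and 17.6. Lbr, the lamin B receptor, had 460.0 and 477 against 1033 and 990.0 and was not called (adjusted p = 0.302 by limma treat).

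**Figure D4:**
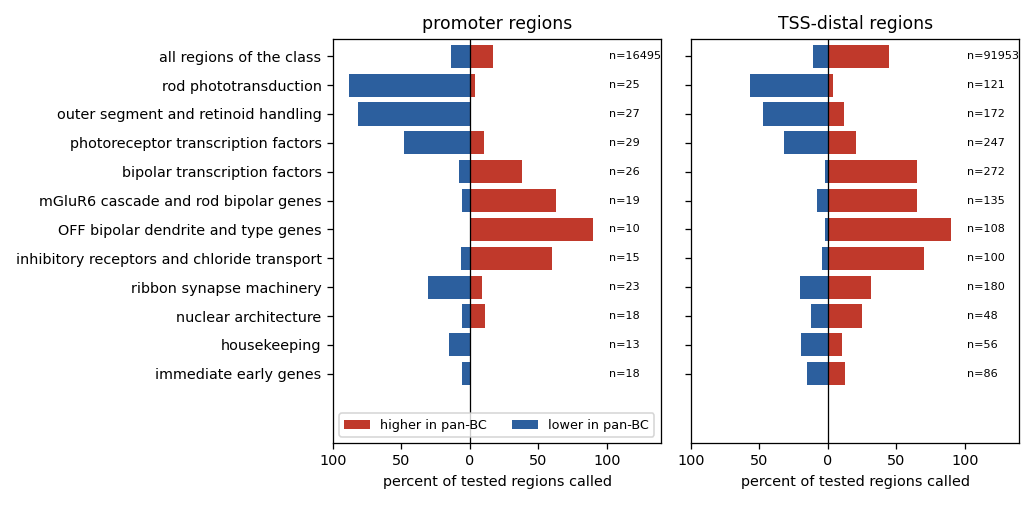
Bars give the percentage of tested regions called higher (red, to the right) or lower (blue, to the left) in pan-BC for each gene list, with all regions of the class on top, for promoters (left panel) and TSS-distal regions (right panel), and n is the number of regions tested. The 3 photoreceptor lists extend mostly to the left and the 4 bipolar lists to the right, beside 17.2% higher and 13.8% lower for all promoters and 44.5% and 10.8% for all TSS-distal regions.

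Some genes gathered many called regions. Nrxn3, a neurexin of the presynaptic membrane, had 50 of 63 regions higher and none lower (median log2 difference 4.16), and Tenm3, a teneurin of synaptic matching, 46 of 53. Cntnap2 and Lsamp, adhesion molecules, each had 44 regions higher, of 52 and 49. The most regions called higher were near Zfp608, with 64 of 74, and Celf4, with 56 of 96. In the other direction Casz1 and Esrrb led with 23 and 18 regions lower and none higher. Elfn1, a synaptic protein of rods that binds mGluR6, had 17 of 30 regions lower and 1 higher, and Phactr1 17 of 55 lower and 6 higher. Mixed genes were common in this direction, since Cadm1 had 16 regions lower and 13 higher and Ntm 16 lower and 41 higher. Of 7848 genes with at least 5 tested regions, 4040 had higher calls alone, 1162 lower calls alone, 2335 both and 311 none. Every tested region was higher at 762 of these genes and lower at 9.

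The largest single differences lay outside the listed genes. The promoter of Cdh18, a cadherin, had 257 and 416 normalized counts in pan-BC and no read in rods, at least 154-fold higher, and that of Zfp975 had 338 and 517 against 0.779 and 0 (log2 difference 8.30 ± 0.32, limma treat, adjusted p = 7.13e-11). Hs3st5, a heparan sulphate sulphotransferase, had 252 and 367 against no read, and Kcnip4, a subunit of potassium channels, 224 and 280.0. The TSS-distal region nearest Mir6379 on chromosome 3, printed above, had 413 and 614 against no read, at least 235-fold higher. The ON-BC libraries had 761 and 826 there, and OFF-BC 201 and 119. In the other direction, the region nearest H3f3a on chromosome 1 had 2.4 and 0 in pan-BC and 421 and 434 in rods (log2 difference -7.86 ± 0.60, limma treat, adjusted p = 3.79e-08). Within Rgs22, 2 intronic regions at chr15:36104103-36104303 and chr15:36104475-36104675 had no read in pan-BC and 152 and 174, and 136 and 146, in rods, at least 79.3-fold and 68.4-fold lower in pan-BC. The promoter of Prcd, a disc protein of photoreceptors, had 12.8 and 2.28 against 272 and 281, and a promoter region 806 bp upstream of Rax, a homeodomain factor, had 5.6 and 9.12 against 363 and 396.

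The deposited peaks, which were called in each library, gave a second view of the same reads. Of the regions called higher, 75.4% lay under peaks of both pan-BC libraries and of no rod library (1 base of overlap sufficed), 3.17% under peaks of all 4 and 5.09% under none. Of the regions called lower, 49.8% lay under peaks of both rod libraries and of no pan-BC library, and 34.1% under peaks of all 4. Regions lower in pan-BC were thus often open in both classes at different heights, and 40.3% of the regions that were not called lay under peaks of all 4 libraries. The libraries had 71698 and 94468 peaks in pan-BC and 40829 and 44540 in rods, covering 27.03, 37.22, 16.34 and 17.76 Mb.

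Libraries that the contrast did not compare showed where each set of regions stood elsewhere. At TSS-distal regions called higher, the median was 36.8 and 43.3 normalized counts in pan-BC and 0 and 1.36 in rods, 43.3 and 46.9 in libraries of ON-BC, 26.9 and 21.4 in those of OFF-BC, and 2.89 to 5.63 in the 4 cone libraries, 2 of green cones and 2 of NrlKO photoreceptors. At TSS-distal regions called lower, it was 9.6 and 9.12 in pan-BC and 89.6 and 93.5 in rods, 41.4 to 52.2 in the cone libraries, 8.96 and 7.32 in the ON-BC libraries and 16.2 and 16.5 in the OFF-BC libraries. Like the pan-BC libraries, those of ON-BC and OFF-BC were made for this series, whereas cones and rods shared the previous work. At promoters called lower, pan-BC kept a median of 120.0 and 105, against 436 and 423 in rods and 221 to 246 in cones.

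Motif matches differed between the 2 directions of change at TSS-distal regions, as counts of exact letters on both strands within the 200 bp. TAATCC, the K50 homeodomain motif of CRX and OTX2, was found in 42.9% of regions lower in pan-BC and in 21.2% of regions higher, against 24.6% of all tested. CAGATG was found in 33.1% of regions higher and 15.5% of regions lower (25.2% of all), and CAGCTG in 23.5% and 13.5% (19.3% of all). Another E-box, CAGGTG, had the opposite order, with 12.6% of regions higher and 19.1% of regions lower (15.7% of all). AGGTCA, the core of nuclear receptor sites, was found in 15.3% of regions higher and 24.0% of regions lower (17.0% of all), and the longer CAAGGTCA, the site of ESRRB and its relatives, which contains AGGTCA, in 1.11% and 4.68% (1.87% of all). TTGGCA, the core of nuclear factor I sites, was found in 13.3% of regions higher and 9.52% of regions lower (11.3% of all). TGCTGAC, a MAF motif of the kind NRL binds, was found in 4.72% and 4.99% (4.63% of all), close together.

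The K50 motif and the E-boxes were read together. Regions with TAATCC and neither CAGATG nor CAGCTG were higher in pan-BC in 33.5% and lower in 21.2% of 14626 cases. Regions with such an E-box and no TAATCC were higher in 57.4% and lower in 5.56% of 28079 cases. With both, 47.0% were higher and 14.2% lower (8018 regions), and with neither 39.1% and 9.93% (41230 regions). The order of the shares was also present in regions of like GC content. Between 45% and 55% GC, TAATCC was found in 19.8% of regions higher and 44.6% of regions lower, and CAGATG in 36.0% and 16.8%. With calls from the GC-corrected values, TAATCC was found in 17.8% of regions higher and 38.2% of regions lower, and CAGATG in 36.5% and 16.9%. At promoters, TAATCC was found in 12.1% of regions lower against 5.51% of regions higher (5.86% of all promoters), CAGCTG in 8.93% against 19.4% (12.2% of all), and CCGGAAG, an ETS motif, in 13.8% against 4.38% (13.3% of all). A match is a string of letters, and binding was not measured.

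Promoter calls were set beside RNA levels of 3 pan-BC and 3 rod libraries of the same series, with no test. The pan-BC RNA came from Otx2-GFP+/- mice without the Grm6-YFP transgene. For 1974 genes with a promoter called higher, the median difference in RNA (log2 of normalized count + 1, pan-BC minus rods) was 3.46, and 72.9% of them were more than 1 higher while 6.64% were more than 1 lower. For 1878 genes with a promoter called lower, the median was -0.46, with 35.7% more than 1 lower and 15.7% more than 1 higher. For 7519 genes with no called promoter it was -0.04. RNA and promoter could disagree at single genes. Prkca had 5069 to 5910 normalized RNA counts in pan-BC and 978 to 1085 in rods, with no promoter call. Slc12a5 had 7696 to 8216 in pan-BC and 1029 to 1142 in rods, although its promoter was lower in pan-BC. Isl1, with a promoter near 0 in rods, had 20848 to 24003 in pan-BC and 56.3 to 153 in rods. Ncam1 RNA had a mean of 23707 in pan-BC and 23014 in rods, while 16 of its 45 regions were lower and 5 higher.

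Markers of other retinal cells were measured because a sort can carry over other cells. The promoters of cone markers (8 regions of 6 genes) summed to 237 and 235 normalized counts in pan-BC and to 315 and 331 in rods. TSS-distal regions of Muller glia markers (63 regions of 7 genes) summed to 2518 and 3041 in pan-BC and to 716 and 761 in rods, and 31 of the 59 tested were higher, beside 44.5% of all TSS-distal regions. Those of endothelial markers (35 regions) summed to 974 and 1046 against 257 and 201, and 22 were higher. TSS-distal regions of amacrine markers (30 regions) summed to 1230.0 and 1243 in pan-BC and 1683 and 1642 in rods, and those of microglia markers (11 regions) to 322 and 303 against 528 and 536. For horizontal cells the promoters (3 regions) summed to 275 and 332 against 47.5 and 46.8, and for ganglion cells (2 regions) to 133 and 151 against 11.7 and 10.2, where Pou4f1 alone had 110.0 and 128 against 3.89 and 2.71. Regions with no read in either rod library included some near Aqp4, Glul, Hes1 and Slc1a3 of the glial list and near Cdh5, Flt1 and Kdr of the endothelial list. The part of other cells in the called regions was not tested.

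**Figure D5:**
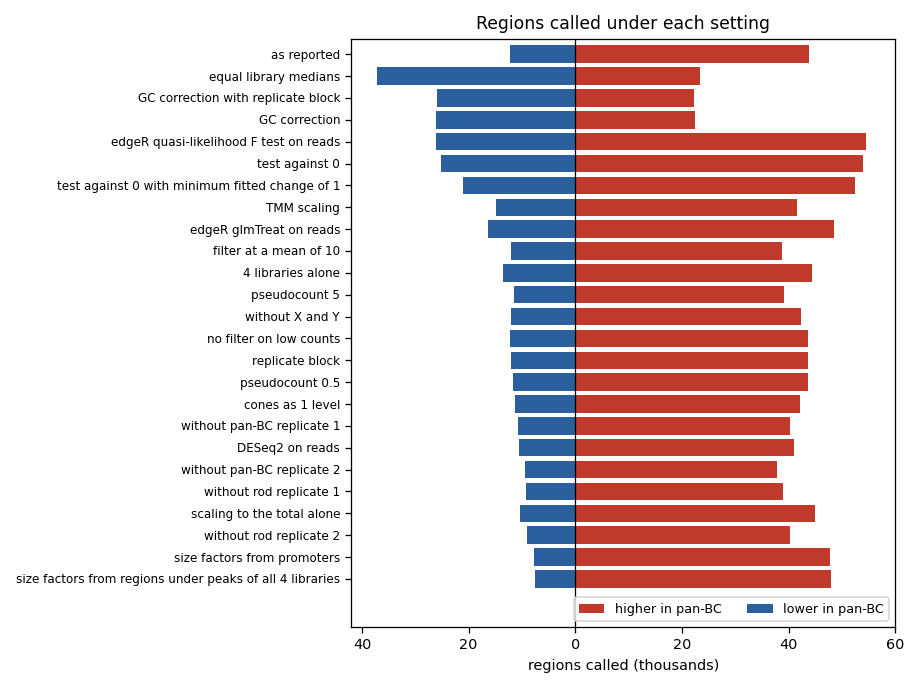
Bars give the number of regions, in units of 1000, called higher (red, to the right) or lower (blue, to the left) in pan-BC as reported and under each alternative setting. The reported counts are 43735 and 12179, and most settings also have more higher than lower calls, with 7645 to 26197 lower calls among them. The balance turns to lower calls under the GC correction (22375 and 26055) and with equal library medians (23409 and 37172).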

How the data were processed

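Open chromatin was measured by ATAC-seq in pan-BC and rod libraries, 2 each, and 8 libraries of other populations entered the same fit (12 in all). The authors aligned reads to GRCm38, removed duplicates, kept fragments shorter than a nucleosome and called peaks per library, in the same way for both studies. The submitters' processing notes list Bowtie2 2.2.5, SAMtools 1.3, Picard 2.19.0, MACS2 2.1.1, bedtools 2.24.0, HOMER 4.8, STAR 2.7.0d, HTSeq 1.9 and featureCounts, and the study's methods give other versions of some of these. The deposited values of regions and genes are signal, read counts divided by 1 size factor per library. All 1212862 values above 0 in the region table (100.0%) came out as whole reads, within 0.01 of a read. Among counts of 1 to 10, 75.3% to 81.2% were even, so a fragment can add 2 reads. The deposited peak files give a score, the fold enrichment, the -log10 of p and q, and a summit offset made by the authors with MACS2. Positions of peaks were used, and the stated -log10 q in 1 alternative.

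Low regions were left out with filterByExpr (edgeR, by group, on recovered reads). The rest were fitted with limma (6 levels, 12 libraries, trended prior) on log2(value + 1) and tested by treat for a change beyond 1 (log2), with adjusted p (Benjamini and Hochberg) below 0.05 (R 4.3.3, limma 3.58.1, edgeR 4.0.16, DESeq2 1.42.0). No exact test over 2 against 2 libraries can reach 0.05, so none was used. The filter left out 2267 regions. Alternatives included edgeR and DESeq2 on the recovered reads, other scalings, and a GC correction. In the latter a lowess curve of each library's deviation from the region mean on GC content was removed, overall level included. The fit was also run on simulated counts, and the outcome is not reported here. Regions were assigned to the nearest TSS of 45755 RefSeq transcripts of GRCm38, and GC content, motifs and sequences came from that genome. The text names the 10 largest changes per direction and class (in part), the promoter and strongest TSS-distal region of listed genes, the 5 genes with most calls per direction (ties added), and the 5 strongest regions at 0 in the other group. Members and lists were chosen with earlier results of these data known. Some genes are not reported here. Floors cover counting error only and treat each read as independent. List medians were recomputed under each scaling.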

Additional observations from a re-analysis of the deposited data

How the results depend on the processing

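The total of called regions was 47336 to 60581 under settings that kept the test against a log2 difference of 1 with limma. Leaving out 1 library in turn gave 47336 to 50887 regions called, 37845 to 40254 higher and 9013 to 10712 lower, and with 1 library left in a group its spread is taken from the other groups. Regions called lower numbered 7800 with size factors from promoters, 7645 with size factors from regions under peaks of all 4 libraries, 25213 in a test against 0 (68.2% of calls higher), 21115 in that test with a minimum fitted change of 1, and 26197 by edgeR's quasi-likelihood test (67.6% higher). The GC correction gave 22375 higher and 26055 lower (46.2% higher), and equal library medians 23409 and 37172 (38.6% higher). Equal medians and the size factors from shared peaks were chosen after seeing the data. The median log2 difference over all regions was 1.156, and 0.958 to 1.57 with TMM, totals, promoters or shared peaks as the scale, but -0.09 with the GC correction and -0.60 with equal library medians.

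The replicate block gave 55719 regions called (43642 higher, 12077 lower), and the GC correction with replicate block 22178 higher and 25901 lower (46.1% higher). Deviations of same-numbered libraries correlated at -0.005 over 108448 regions, so the numbers are not shown to pair the libraries.

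Of 265 named regions with a call, 201 kept it under every alternative, 64 lost it under at least 1, and 6 of these changed sign. With the GC correction, with or without the block, Gpr179 TSS-distal region r063458 was at -0.06 and Pde6c promoter region r031015 at -0.01. With equal library medians Pde6c promoter region r031015 was at -0.14, Gnao1 promoter region r047736 at -0.23, Gnb3 TSS-distal region r054975 at -0.21, Jun TSS-distal region r038569 at -0.25 and Rbpms TSS-distal region r046815 at -0.09. In the central 100 bases the motif share of lower minus higher regions changed sign for TAATTG share (0.37 percentage points), TGACTCA share (-0.08), GCGCATG share (-0.08) and ATGCAAAT share (0.17). The share of regions called higher under peaks of both pan-BC and no rod library was 70.9% with a stricter peak threshold (-log10 q of at least 5) and 75.3% with an overlap of 100 bases. The causes were not tested, other than that leaving out libraries removes samples.

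The depth limits regions near 0 in rods, where 3 reads correspond to 2.34 and 2.03 normalized counts and fitted differences are no bounds. Each group had 2 libraries, and the rod and pan-BC libraries came from separate work.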

Other observations

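The MEF2 letters TAAAAATA were found in 3.74% of TSS-distal regions higher in pan-BC and 2.04% of regions lower (2.74% of all), and the ONECUT letters ATTGAT in 6.56% and 3.72% (5.36% of all). AGGGGGC, the CTCF core, was found in 4.84% of regions higher and 3.46% of regions lower, and in 7.72% of regions that were not called. GGGCGG, the SP motif, was found in 6.06% of regions higher, 9.39% of regions lower and 13.0% of regions not called.

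Among markers of other cells, Tfap2b, an amacrine factor, had all 7 of its regions higher in pan-BC, and its strongest region had 73.6 and 107 normalized counts against no read in rods, at least 41.3-fold higher. Its RNA had 90.4 to 93.8 normalized counts in pan-BC and 0 to 8.65 in rods. Slc6a9, the glycine transporter, had 18.4 and 14.3 at its promoter in pan-BC and 185 and 139 in rods (log2 difference -3.23, limma treat, adjusted p = 3.47e-05), and 4 of its 13 regions were lower. Opn1mw, the cone opsin gene, had 4.8 and 2.28 at its promoter in pan-BC and 1.56 and 0 in rods, while a region 3852 bp upstream had 9.6 and 7.98 against 170.0 and 193. Polr2a and Rplp0, housekeeping genes, were lower at their promoters, with 137 and 121 against 522 and 499 and with 310.0 and 250.0 against 874 and 863, and the Rplp0 call was lost with size factors from promoters.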
